A study of Mus musculus with 6 samples.

Results

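The miR-99/100 and miR-125 families were measured in mouse pancreatic islets, the small clusters of hormone-secreting cells within the pancreas. The 9 mature miRNAs described here were taken by name from the 1011 rows of the deposited table: mmu-miR-99a-5p, mmu-miR-99b-5p, mmu-miR-99b-3p, mmu-miR-100-5p, mmu-miR-125a-5p, mmu-miR-125a-3p, mmu-miR-125b-5p, mmu-miR-125b-1-3p and mmu-miR-125b-2-3p, named from here on without the species prefix. All 9 passed the filter on low counts that left 406 rows for testing. The islets came from mice fed the diet labelled HFD or the diet labelled NCD, with 3 small RNA libraries per diet, numbered 1 to 3. Strain, age, time on diet and whether a library held 1 animal or a pool were not given in the sources used here. P-values therefore measure the spread between these libraries, which may be technical. The families were proposed for description with their values in HFD against NCD islets already known: they were chosen with the HFD against NCD contrast in view, and the differences between diets are therefore a description.

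A miRNA is cut from a hairpin precursor, and either arm of the hairpin, 5p or 3p, can become the mature strand that guides the silencing complex. Target choice rests mainly on the seed, bases 2 to 8 from the 5′ end. miR-125 is the mammalian relative of the worm developmental timing miRNA lin-4 and represses Lin28 transcripts, while miR-99 and miR-100 are known to repress Mtor, the kinase that couples nutrients to growth. In mammals these miRNAs lie in clusters of a miR-99 or miR-100 hairpin, a let-7 hairpin and a miR-125 hairpin, copies of 1 ancestral locus.

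The 9 mature sequences are shown because the seeds define the families and because several members are alike enough to exchange reads. They are those of the deposited table, which equal the RefSeq entries (GRCm38.p6) for all 9, and the seed is in capitals:
miR-99a-5p: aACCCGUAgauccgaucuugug
miR-99b-5p: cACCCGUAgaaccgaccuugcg
miR-100-5p: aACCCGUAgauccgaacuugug
miR-125a-5p: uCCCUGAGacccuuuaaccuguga
miR-125b-5p: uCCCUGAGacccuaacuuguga
miR-99b-3p: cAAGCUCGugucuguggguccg
miR-125a-3p: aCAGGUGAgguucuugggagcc
miR-125b-1-3p: aCGGGUUAggcucuugggagcu
miR-125b-2-3p: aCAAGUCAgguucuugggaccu
The seed ACCCGUA was found in 3 rows of the table, which are miR-99a-5p, miR-99b-5p and miR-100-5p. The seed CCCUGAG was also found in 3 rows, miR-125a-5p, miR-125b-5p and miR-351-5p. Each of the 4 3p arms had a seed that no other row shared, so the 3p arms of miR-125a and miR-125b are not seed mates although their 5p arms are.

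Positions of differences are counted from 1 at the 5′ end of the first-named miRNA. miR-99a-5p and miR-100-5p differ at 1 base (U16A). miR-99a-5p and miR-99b-5p differ at 4 bases (A1C, U11A, U16C and U21C), all outside the seed. miR-125a-5p and miR-125b-5p share their first 13 bases and 21 of 24 aligned positions. The authors' handling of a read that fits 2 names was not given in the sources used here, so the split between miR-99a-5p and miR-100-5p is the least certain. The related miR-10a-5p reads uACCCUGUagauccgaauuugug, with its seed in capitals. It matched miR-100-5p at 20 of 23 aligned positions but carries the seed ACCCUGU.

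The hairpins lie in 3 clusters (GENCODE M21, build GRCm38), all on the plus strand. The compact one is on chromosome 17, with mir-99b at 17830188 to 17830257, let-7e at 17830352 to 17830444 and mir-125a at 17830812 to 17830879. All 3 fall within Spaca6, a gene for a sperm protein, and mir-125a overlaps one of its annotated exons while the other two are intronic. The mir-125a hairpin is shown with its 5p and 3p arms in capitals, to place the arms compared further on (RefSeq, chr17:17830812-17830879, plus strand):
mir-125a: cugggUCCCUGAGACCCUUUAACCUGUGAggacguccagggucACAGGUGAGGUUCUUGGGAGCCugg
On chromosome 16, mir-99a (77598936 to 77599000), let-7c-1 (77599657 to 77599750) and mir-125b-2 (77646273 to 77646343) lie in introns of the long noncoding Mir99ahg, and mir-125b-2 also overlaps an exon annotated as C130023A14Rik. On chromosome 9, mir-100 (41531425 to 41531504), let-7a-2 (41536716 to 41536811) and mir-125b-1 (41581926 to 41582002) lie in introns of 3110039I08Rik and of Gm49317. There mir-100 also overlaps an exon of Gm48742 on the opposite strand, and mir-125b-1 an exon of Gm28119 on the same strand. The start of the miR-125 hairpin is 624 bases after that of mir-99b, but 47337 bases after that of mir-99a and 50501 after that of mir-100. The mature miR-125b-5p is the same from both of the spread-out clusters, so its 2 loci can be told apart only by their 3p arms.

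The libraries held 7166712 to 11172255 counts, of which the 9 miRNAs took 0.926% to 2.45%. No pair of libraries of 1 diet was alike within sampling noise (chi-square of 378 to 1894 per degree of freedom). NCD 3 stood apart, with a TMM scaling factor of 1.73 against 0.84 to 0.995 elsewhere, and values without it stand beside the results it moved most. Levels are CPM, read counts divided by TMM-scaled library totals. The 3 islet endocrine markers (miR-375-3p, miR-7a-5p and miR-184-3p) summed to 445633 to 544927 CPM in HFD and 260073 to 598651 CPM in NCD libraries, the lowest being NCD 3. Markers of other cells were present in every list, with none at 0 in all libraries. The 2 endothelial miRNAs, led by miR-126a-3p, summed to 299.8 to 434 CPM in HFD and 346 to 748 CPM in NCD. The 6 of fibroblasts and smooth muscle, led by miR-143-3p, summed to 1334 to 4985 and 1519 to 2989 CPM, with HFD 2 highest. The 3 acinar miRNAs, led by miR-217-5p, summed to 20.2 to 202 and 109 to 414 CPM, and the 4 leukocyte miRNAs, led by miR-142a-5p, to 3.73 to 9.13 and 8.2 to 28.5 CPM. The erythroid pair, led by miR-451a, summed to 41.3 to 134 and 33.4 to 127 CPM. The 1 liver marker, miR-122-5p, was at 34.1 to 68.3 and 61.3 to 757 CPM, and the 3 muscle miRNAs, led by miR-1a-3p, summed to 14.2 to 62.1 and 52.8 to 128 CPM, NCD 1 being highest in both. The part of these cells in the differences that follow was not tested. In such whole-islet samples, fewer cells of a type and less RNA per cell cannot be told apart.

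One miRNA made up most of these families in every library. miR-99b-5p was at 9242, 15039 and 8943 CPM in HFD replicates 1, 2 and 3, and at 16309, 11542 and 11167 CPM in the NCD replicates. HFD 2 and NCD 1 were the high libraries, 1 of each diet, and the levels of the diets overlapped. It ranked 7th of all rows by mean count. Its share of the reads of the 9 was 82.2% to 86.6% in HFD and 78.9% to 81.7% in NCD libraries, which did not overlap. This share also depends on the others, of which miR-125a-5p, the next in level, was lower in every HFD library. It is not a difference in the level of miR-99b-5p, and such shares were not computed for other families.

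The next by mean level over the 6 libraries was miR-125a-5p, its neighbour from the compact cluster, at 1438 CPM. Then came miR-99a-5p at 402 CPM, miR-100-5p at 267 CPM, miR-125b-5p at 261.5 CPM and miR-99b-3p at 143 CPM. miR-125a-3p followed at 28.7 CPM, miR-125b-1-3p at 5.79 CPM and miR-125b-2-3p at 1.72 CPM. All are 22 to 24 bases long, so length does not enter these levels, but library kits capture different miRNA ends unequally, and small gaps between miRNAs are not comparable. The ranges of miR-99b-5p, miR-125a-5p and miR-99a-5p over the 6 libraries did not overlap, and neither did those of miR-99b-3p and miR-125a-3p or of miR-125a-3p and miR-125b-1-3p. Those of miR-99a-5p and miR-100-5p, of miR-100-5p and miR-125b-5p, of miR-125b-5p and miR-99b-3p, and of the pair of miR-125b 3p arms did overlap.

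**Figure D1:**
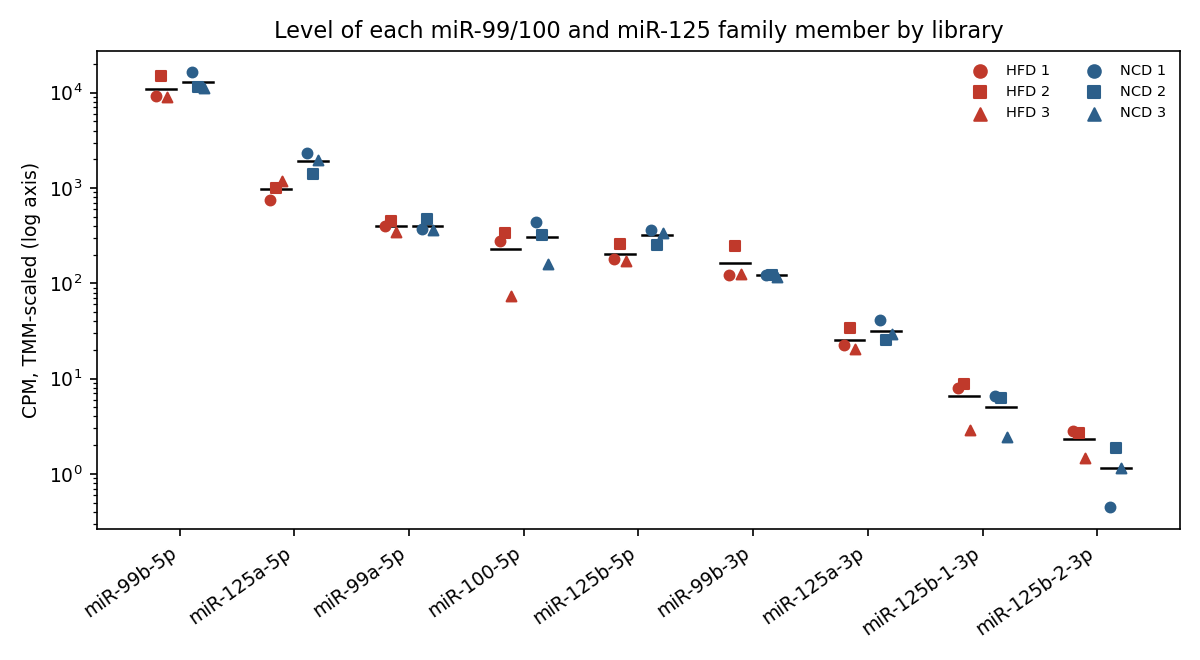
Level of each of the 9 miRNAs in each library, in TMM-scaled CPM on a log axis, with points for libraries and black lines for the mean of a diet (3 libraries each). miR-99b-5p sits at 8943 CPM or above in every library, and miR-125a-5p is the 1 miRNA whose HFD points all lie below its NCD points.

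Within each seed group the copy from the compact cluster dominated. miR-99b-5p held 93.2% to 95.6% of the reads with the seed ACCCGUA, leaving 2.18% to 4.07% for miR-99a-5p and 0.783% to 2.78% for miR-100-5p. miR-125a-5p held 79.0% to 87.4% of the reads with the seed CCCUGAG and miR-125b-5p 12.6% to 20.8%. The seed mate miR-351-5p had at most 2.52 CPM and did not pass the filter on low counts. These shares overlapped between diets for each of the 5 miRNAs.

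**Figure D2:**
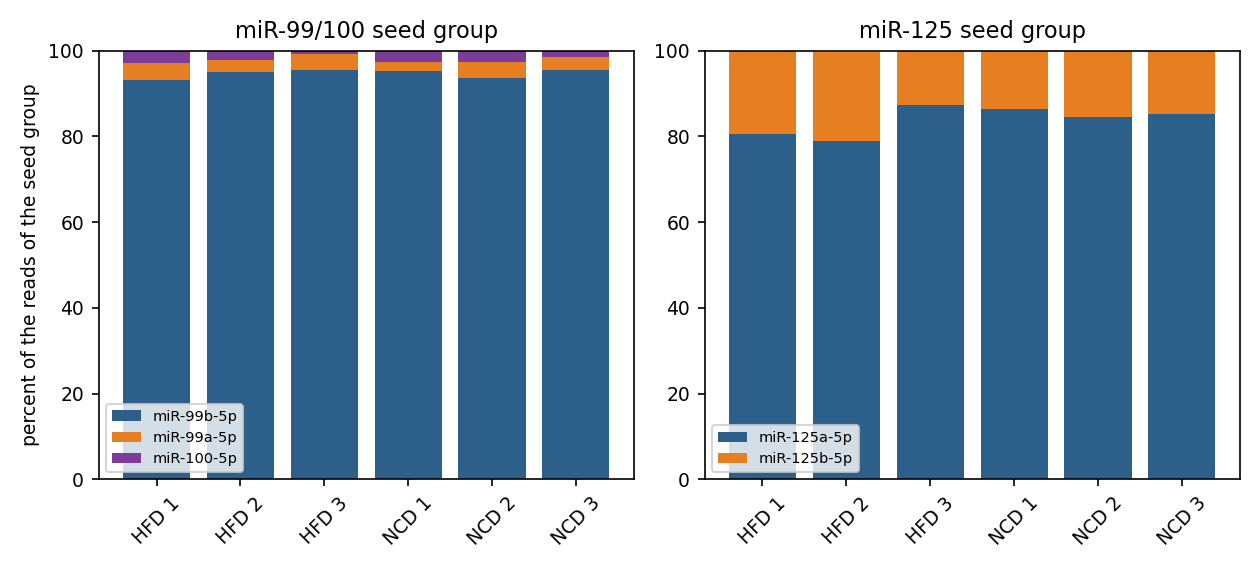
Make-up of the 2 seed groups in each library, as percent of the raw reads carrying the seed (miR-351-5p, too rare to see, is left out). miR-99b-5p fills at least 93.2% of its group and miR-125a-5p at least 79.0% of its group in every library.

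The comparison of diets asked how the islet levels of these miRNAs differ between HFD and NCD feeding. None of the 9 was called, with edgeR at an adjusted p under 0.05, where 0.246% of the 406 tested miRNAs were. With DESeq2 0 were called (0.743% of those with an adjusted p) and with limma-voom 0 (0.246%). At an unadjusted p under 0.05 in edgeR there was 1 of 9, miR-125a-5p, lower in HFD, beside 10.1% of all miRNAs in either direction and 5.17% in that one. With DESeq2 there were 2, miR-125a-5p and miR-125b-5p, beside 12.1% of all miRNAs. The adjusted p of the 9, over all miRNAs tested, ran from 0.363 to 0.986 by edgeR. The fold change was below 0 for 6 of the 9, beside 48.5% of all miRNAs tested, with a median log2 fold change of -0.23 against 0.015 over all. It was negative for each of the 5 5p arms, whose median was -0.41 (miR-99a-5p turned positive without HFD 3 or NCD 2). Of the 4 3p arms, 3 had a positive value, and the median of the 4 was 0.42. Of these 3, miR-125b-1-3p was at -0.023 without NCD 3 and miR-99b-3p at 0.0062 without HFD 2. Over all tested miRNAs with an arm in their name, 92 of 193 5p arms were negative and 98 of 192 3p arms positive. Their medians were 0.032 for 5p and 0.0081 for 3p.

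miR-125a-5p showed the clearest separation. Its level was 753, 992 and 1187 CPM in HFD replicates 1 to 3 and 2307, 1410 and 1982 CPM in the NCD replicates. Every HFD library lay below every NCD library, which was so for 1 of the 9 miRNAs and 4.93% of all tested (15.3% when either direction is counted). The means were 977 ± 217 and 1899.6 ± 454 CPM (SD, n = 3 each), a log2 fold change of -0.96 (standard error 0.32). Scaled by library totals alone, which shifted the median of all miRNAs to -0.37, the log2 fold change was -1.37, and without NCD 3 it was -0.95.

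miR-125b-5p, which shares the miR-125 seed but comes from the chromosome 16 and 9 clusters, was at 181, 261 and 172 CPM in HFD and 360.3, 255 and 339.7 CPM in NCD libraries. HFD 2 lay just above NCD 2, so the diets overlapped. The means were 205 ± 49.0 and 318 ± 55.9 CPM (SD, n = 3 each), a log2 fold change of -0.64 (standard error 0.31). Under the 15 alternatives run, its log2 fold change lay between -1.08 and -0.58, and that of miR-125a-5p between -1.37 and -0.83.

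The miR-99 and miR-100 guide strands differed less. miR-99b-5p averaged 11075 ± 3437 CPM under HFD and 13006 ± 2867 CPM under NCD (SD, n = 3 each), a log2 fold change of -0.23 (standard error 0.33) that lay between -0.55 (without HFD 2) and -0.10 (without NCD 1) with a library left out. miR-99a-5p was the steadiest of the 9, at 403, 448 and 348 CPM in HFD and 374, 477 and 361 CPM in NCD libraries. Its highest library was 1.37 times its lowest, and its log2 fold change was -0.015 (standard error 0.29).

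miR-100-5p varied far more than miR-99a-5p, from which it differs by 1 base. It was at 275, 338 and 73.3 CPM in HFD and 436, 321 and 158 CPM in NCD libraries, a span of 5.95 times from HFD 3 to NCD 1. The low libraries, HFD 3 and NCD 3, were also the lowest for miR-99a-5p, but only by a small margin. The log2 fold change of miR-100-5p was -0.41 (standard error 0.50). It was -0.052 without HFD 3, -0.12 without NCD 1, -0.82 without HFD 2 and -0.76 without NCD 3. Reads of miR-99a-5p per read of miR-100-5p, a ratio looked at after the values were seen, were 4.75 in HFD 3 and 2.29 in NCD 3, against 0.858 to 1.49 in the other 4 libraries. The cluster mate let-7a-5p, which also comes from a hairpin outside this cluster, was lowest in NCD 3 as well. It was at 1258 CPM there against 3072 to 4052 CPM elsewhere, but in HFD 3 it was at 3155 CPM.

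The passenger arms were scarcer. miR-99b-3p was at 123, 245 and 127 CPM in HFD and 123, 123 and 117 CPM in NCD libraries. HFD 2 stood above the other libraries, which were nearly level. HFD 2 also had the highest sum of fibroblast and smooth muscle markers, nearly all of it miR-143-3p at 4941 CPM. Of that list miR-214-3p peaked in HFD 2 too, but miR-145a-5p, miR-145a-3p, miR-199a-3p and miR-199a-5p did not. The part of such cells was not tested. The log2 fold change of miR-99b-3p, 0.45 (standard error 0.34), was 0.0062 without HFD 2 and 0.035 with library totals only.

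miR-125a-3p was at 22.4, 34.2 and 20.5 CPM in HFD and 40.9, 25.3 and 29.1 CPM in NCD libraries, and the diets overlapped. Its log2 fold change was -0.30 (standard error 0.37), and -0.60 without HFD 2 and -0.16 without NCD 1. The 3p arms of miR-125b, which alone tell its 2 hairpins apart, were rare. miR-125b-1-3p from chromosome 9 had 32 to 71 reads per library and miR-125b-2-3p from chromosome 16 had 3 to 25.

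The first was the higher in all 6 libraries, and its log2 fold change was 0.40 (standard error 0.55), which turned to -0.023 without NCD 3. That of miR-125b-2-3p was 0.89 (standard error 0.61) and became 0.57 without NCD 1, the library with 3 reads.

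**Figure D3:**
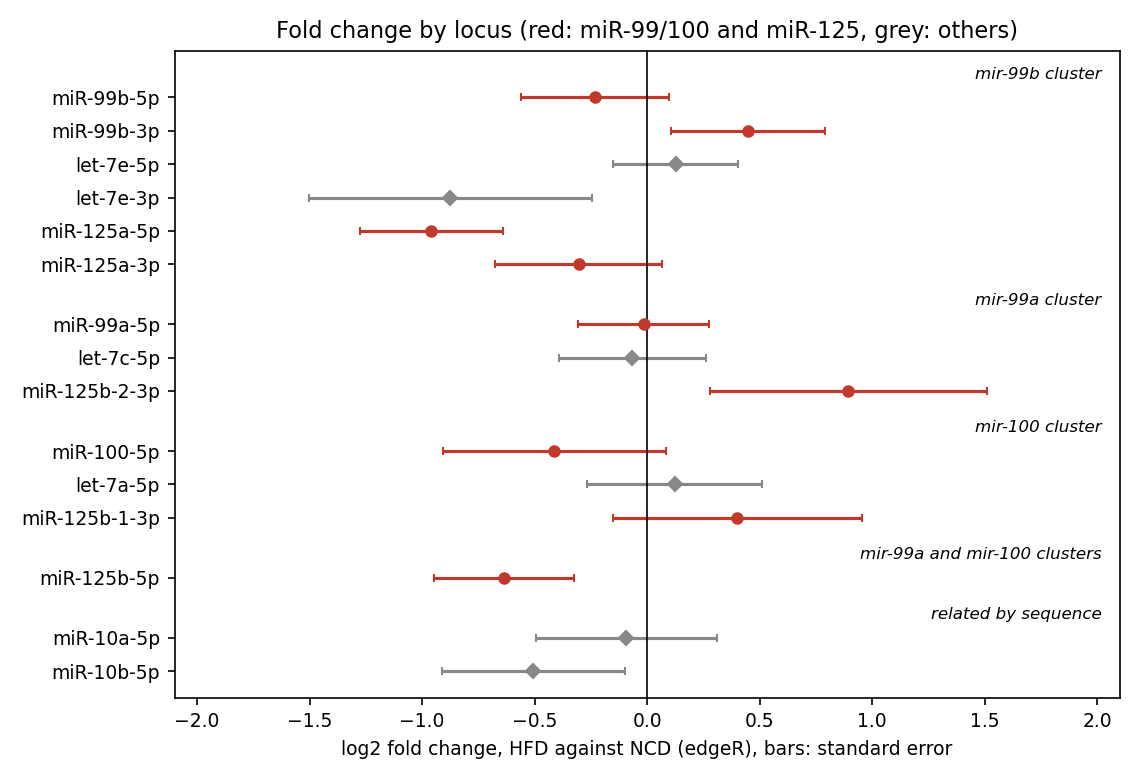
The log2 fold change of HFD against NCD from the edgeR fit, with bars for the standard error, grouped by cluster (red circles for the 9 miRNAs, grey diamonds for cluster mates and relatives). let-7c-5p and let-7a-5p also come from loci outside the cluster they are drawn in. miR-125a-5p at -0.96 lies lowest, and of its cluster let-7e-3p lies at -0.87, miR-99b-5p at -0.23 and let-7e-5p at 0.13.

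The listed cluster mates and relatives made up 8 rows, of which 6 were tested. Of these, 0 were called by edgeR and 0 had an unadjusted p under 0.05, and 4 had a negative and 2 a positive fold change, with a median of -0.079. let-7e-5p, encoded between mir-99b and mir-125a, was almost level, at 459 to 496 CPM in HFD and 413 to 453 CPM in NCD libraries. Its diets did not overlap, HFD being higher, beside 10.3% of all tested miRNAs, but its log2 fold change of 0.13 (standard error 0.28) became -0.30 with library totals only. let-7e-5p differs from the more abundant let-7a-5p at 1 base (G9U), so reads may be shared. let-7e-3p, at a mean of 1.56 CPM, had a log2 fold change of -0.87 (standard error 0.63), and -0.30 without NCD 3.

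Among the rest, let-7c-5p (-0.066), let-7a-5p (0.12) and miR-10a-5p (-0.093) had fold changes on the log2 scale smaller than their standard errors, with a sign that changed under some settings. miR-10b-5p had a log2 fold change of -0.51 (standard error 0.41), which was -0.98 without HFD 2 and -0.26 without NCD 1. let-7c-1-3p had a mean of 0.178 CPM and, like miR-351-5p, was not tested. let-7c-5p has 2 RefSeq loci, and let-7a-1-3p, from a further let-7a hairpin, was also counted. The levels of let-7c-5p and let-7a-5p therefore do not stand for the mir-99a and mir-100 clusters alone.

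A ratio of 2 miRNAs within 1 library does not depend on the scaling between libraries, and was used to set the members of a cluster against each other. For the mir-99b cluster, there were 0.0815, 0.0659 and 0.133 reads of miR-125a-5p per read of miR-99b-5p in HFD replicates 1 to 3, and 0.141, 0.122 and 0.178 in the NCD replicates. HFD 3 fell between NCD 2 and NCD 1, so the diets overlapped. On the log2 scale the ratio averaged -3.48 ± 0.52 under HFD and -2.78 ± 0.27 under NCD (SD, n = 3 each). Their difference, -0.70, exceeded either SD and lay between -0.99 and -0.48 on leaving out any 1 library. No test was run on it, since the miRNAs were chosen with these values known.

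Against let-7e-5p, from the middle hairpin of the same cluster, the separation was wider. The levels fixed this in advance: in every HFD library miR-125a-5p was below, and let-7e-5p slightly above, every NCD library. The ratio therefore adds nothing to those levels. The ratio to let-7e-5p and the next were chosen after the values were seen. Per read of let-7e-5p there were 1.52, 2.13 and 2.58 reads of miR-125a-5p in HFD and 5.32, 3.42 and 4.37 in NCD libraries, which did not overlap. The difference of the mean log2 ratio was -1.08. For miR-99b-5p per read of let-7e-5p the values were 18.6, 32.3 and 19.5 in HFD and 37.6, 28.0 and 24.6 in NCD libraries, which overlapped, with a difference of -0.38. It was -0.64 without HFD 2, and that of miR-125a-5p lay between -1.26 and -0.87 on leaving out any 1 library.

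In the paralogous clusters the matching ratio is that of miR-125b-5p to the sum of miR-99a-5p and miR-100-5p. It was 0.267, 0.332 and 0.408 in HFD and 0.445, 0.319 and 0.654 in NCD libraries, and the diets overlapped. The mean log2 ratio was -1.60 ± 0.30 and -1.14 ± 0.52 (SD, n = 3 each), a difference of -0.45 that was -0.19 without NCD 3. The summed ratio between loci was nearly equal in the diets on average. miR-99b-5p makes up most of its first sum, so it says little of miR-125a-5p. The sum of miR-99b-5p and miR-125a-5p was 11.6, 15.3 and 17.1 times that of miR-99a-5p, miR-100-5p and miR-125b-5p in HFD, and 15.9, 12.3 and 15.3 times in NCD libraries. Its mean log2 ratio was 3.86 ± 0.29 and 3.85 ± 0.20 (SD, n = 3 each).

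Within the miR-125 seed group, there were 4.15, 3.8 and 6.91 reads of miR-125a-5p per read of miR-125b-5p in HFD and 6.40, 5.53 and 5.84 in NCD libraries. HFD 3 was the highest of all and the other two HFD libraries the lowest. The difference in mean log2 ratio, also looked at after the values were seen, was -0.31.

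**Figure D4:**
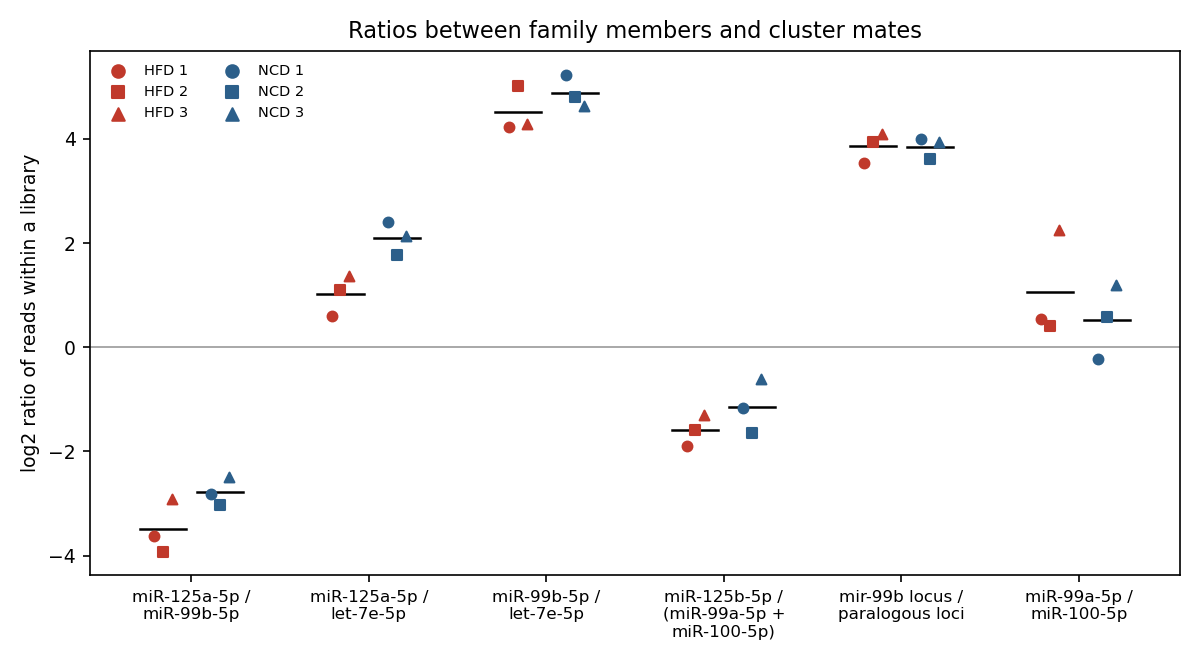
Log2 ratios of reads within each library, with points for libraries and black lines for the mean of a diet (3 libraries each). The diets separate for miR-125a-5p over let-7e-5p, where HFD libraries have 1.52 to 2.58 and NCD libraries 3.42 to 5.32 reads per read. That separation follows from the levels of both miRNAs, which already part the diets in opposite directions. The diets overlap for the mir-99b locus, mostly miR-99b-5p reads, over its paralogous loci.

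The arms of each hairpin were compared last. For miR-99b there were 75.1, 61.3 and 70.6 5p reads per 3p read in HFD replicates 1 to 3, and 133, 93.5 and 95.8 in the NCD replicates. Every HFD library lay below every NCD library. On the log2 scale the ratio averaged 6.10 ± 0.15 under HFD and 6.73 ± 0.28 under NCD (SD, n = 3 each), with a difference of -0.62 that lay between -0.72 and -0.46 on leaving out any 1 library. The 3p arm accordingly held 1.44% ± 0.15 of miR-99b reads under HFD and 0.946% ± 0.173 under NCD (SD, n = 3 each).

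For miR-125a the ratio was 33.7, 29.0 and 58.0 in HFD and 56.3, 55.7 and 68.2 in NCD libraries. HFD 1 and 2 lay well below the rest, and HFD 3 lay between NCD 1 and NCD 3. The difference in mean log2 ratio was -0.64, and -0.44 without HFD 2. For miR-125b the 5p arm was set against both 3p arms together, which gave 17.0, 23.0 and 39.4 in HFD and 51.7, 31.5 and 95.5 in NCD libraries. These overlapped through HFD 3 and NCD 2. The difference was -1.11, and -0.70 without NCD 3.

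So 3 of 3 arm ratios were lower on average in HFD libraries. The miR-125b ratio, which sums the 3p arms of different hairpins, has no counterpart among the 96 hairpin names that follow. Of the 96 hairpin names with both arms tested, 45.8% had a lower mean 5p to 3p ratio in HFD, and for 4.17% every HFD library lay below every NCD library, miR-99b among them. The reverse, every HFD library above every NCD library, held for 9.38% of the 96 and for none of these 3 ratios. The median difference over the 96 was 0.082, and from the lowest, miR-125a stood 14th and miR-99b 17th.

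**Figure D5:**
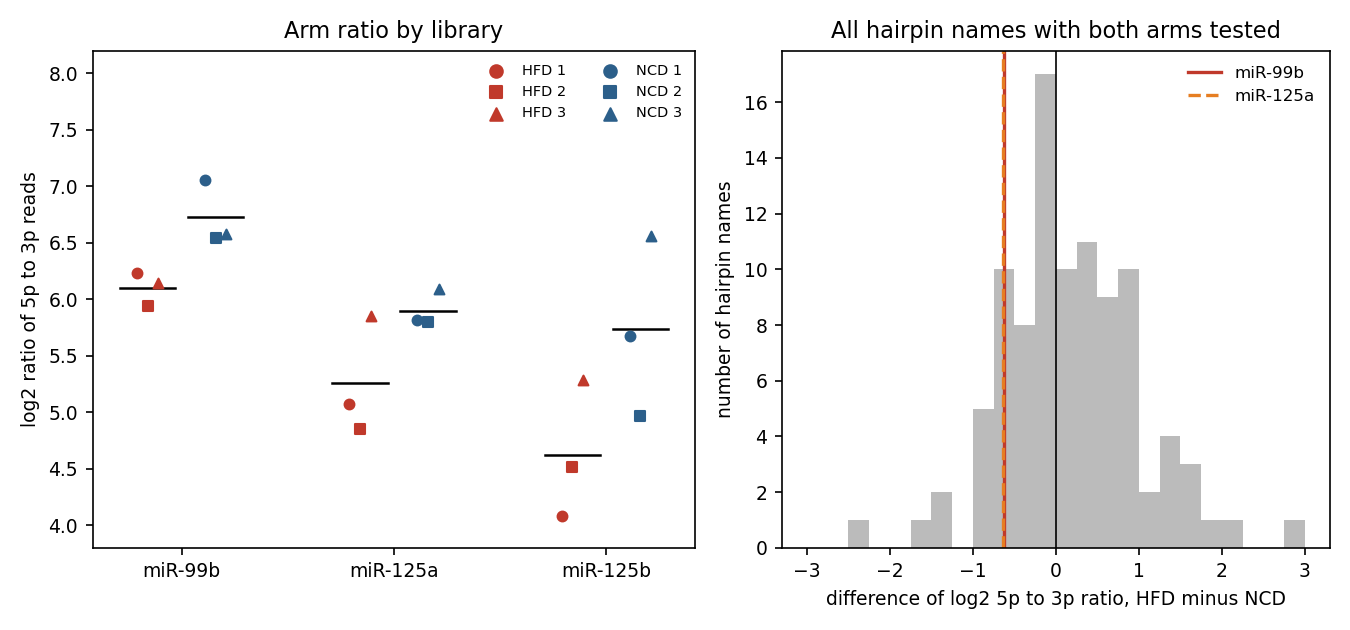
Left, the log2 ratio of 5p to 3p reads of miR-99b, miR-125a and miR-125b in each library, with black lines for the mean of a diet (3 libraries each). Right, the difference of that ratio between diets for the 96 hairpin names with both arms tested, where the lines for miR-99b at -0.62 and miR-125a at -0.64 almost coincide.

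Likeness across the 6 libraries was measured as Pearson's r of log2 CPM over the 238 tested miRNAs with a mean of at least 10 CPM, apart from the miRNA itself. It is a description: the 6 libraries share 1 scaling, and the names are the highest of many. miR-99b-5p was most like miR-125a-3p (r = 0.97, Spearman's rho = 0.94), miR-126a-5p (0.96 and 0.94) and miR-423-3p (0.96 and 0.94). Its co-encoded guide miR-125a-5p came only 62nd, with an r of 0.49 and a rho of 0.49, and its own 3p arm 63rd, with an r of 0.47 and a rho of -0.09. miR-126a-5p is an endothelial marker. The far more abundant marker of that list, miR-126a-3p, was not among the 3. It was at 304, 419 and 295 CPM in HFD replicates 1 to 3 and 726, 558 and 333 CPM in the NCD replicates. Within each diet its libraries ranked in the same order as those of miR-99b-5p. The part of endothelial cells was not tested.

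miR-125a-5p was most like miR-92a-3p (r = 0.90, rho = 0.94), miR-200b-5p (0.89 and 0.83) and let-7d-3p (0.88 and 0.83), and its r with let-7e-5p was -0.68. miR-125b-5p was most like miR-222-3p (0.99 and 0.94), miR-92a-3p (0.98 and 0.89) and miR-744-5p (0.95 and 1.0). These orders depended on NCD 3. Without it, the 3 named for miR-99b-5p ranked 5th, 2nd and 7th, those for miR-125a-5p 6th, 4th and 9th, and those for miR-125b-5p 1st, 2nd and 17th, with r from 0.85 to 0.99. The level of likeness between cluster mates depends on the scaling. With library totals only, r between miR-99b-5p and miR-125a-5p was 0.86, and between miR-125a-5p and let-7e-5p it was 0.71.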

How the data were processed

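Raw read counts per mature miRNA and library were taken from the authors' deposited table, per the file headers. The TPM values deposited by the authors equal the count scaled to the library's raw total, to a relative difference of 4.61e-09, and were not used further. The aligner, counting tool and genome build were not given in the sources used here. Counts were fitted over the whole table with edgeR 4.0.16 (R 4.3.3): filterByExpr with a minimum count of 10, TMM factors, and the quasi-likelihood fit (glmQLFit with legacy = FALSE) and test, with diet as the only term. Standard errors are the absolute log2 fold change over the root of the F statistic. Benjamini-Hochberg adjustment ran over 406 miRNAs (threshold 0.05). The filter removed at most 0.0351% of a library's reads. A count of 0 allows up to 0.213 to 0.445 CPM (3 counts, counting error only). Ratios had a prior count of 0.5 per term. Alternatives were other size factors, other filters, DESeq2 1.42.0, limma-voom (limma 3.58.1), a replicate block, each library left out and a prior count of 5, and, chosen after the data were seen, the legacy setting and the ratios the text says were added. Named miRNAs were the 9 members, their listed cluster mates and relatives, marker lists (as sums with the leading marker) and, for 3 members, the 3 most similar miRNAs. Of 2 rows with reverse-complementary sequences over at least 18 bases only 1 was named. The members and lists were chosen with earlier results of these data known. The fit was tested on simulated data whose changes were larger than those of the 9 members. That test does not measure how well changes of their size are found. Same-numbered libraries were treated as unpaired.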

Additional observations from a re-analysis of the deposited data

How the results depend on the processing

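The number of the 9 miRNAs called between diets was 0 under each of the 15 alternatives run (with a mean of at least 100 counts, 7 of the 9 were tested, without miR-125b-1-3p and miR-125b-2-3p), with a lowest adjusted p among the 9 from 0.136 (without NCD 2) to 0.870 (without HFD 1). It was 0 with each library left out in turn. The replicate block also gave 0, and the deviations of same-numbered libraries correlated at 0.14, -0.24 and 0.31, so same-numbered libraries were treated as unpaired. The fold changes of miR-99b-5p, miR-99b-3p, miR-100-5p, miR-125a-5p, miR-125a-3p, miR-125b-5p and miR-125b-2-3p kept their sign under each alternative that tested them.

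On leaving out any 1 library, the log2 fold change of miR-99a-5p lay between -0.14 and 0.11 (0.034 without HFD 3, 0.11 without NCD 2) and that of miR-125b-1-3p between -0.023 (without NCD 3) and 0.75. Of the cluster mates, let-7e-5p was at -0.30 with library totals only and -0.049 with a mean of at least 100 counts. let-7c-5p lay between -0.34 and 0.084 with a library left out (0.026 without NCD 1, 0.084 without NCD 2). let-7a-5p was at -0.075 with library totals only and -0.012 with a mean of at least 100 counts, and between -0.26 (without NCD 3) and 0.40 with a library left out. miR-10a-5p was at 0.017 with limma-voom, 0.012 with the replicate block, and between -0.46 and 0.21 with a library left out (0.077 without HFD 3, 0.21 without NCD 2). The difference in the ratio of the mir-99b locus to its paralogous loci was 0.0064, and between -0.11 and 0.17 with a library left out, with -0.033 without HFD 2, -0.11 without HFD 3 and -0.11 without NCD 2. The ratio of miR-99a-5p to miR-100-5p differed by 0.55, and by -0.037 (without HFD 3) to 0.89 with a library left out. The other ratio differences kept their sign. For ratios the replicate block was no check, since with each number in both diets it returns the same difference. Why the values shifted under other settings was not tested. Over all miRNAs 1 was called, against 0 with library totals only, 3 with DESeq2, 8 without a filter and 0 to 4 with a library left out.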
